A study of Mus musculus with 6 samples.

Results

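A set of 33 genes that mark oligodendrocyte precursor cells and newly formed oligodendrocytes was followed in the optic nerve of mice that form optic glioma. The genes were chosen by symbol, all 33 were among the 35850 genes of the deposited table, and all 33 passed the filter on low values. At 6 weeks of age, the mice had one Nf1 copy flanked by loxP sites (Flox), the other with the R681X mutation, and a GFAP-Cre transgene. Neurofibromin, the product of Nf1, restrains RAS, and Cre under the GFAP promoter removes the floxed allele in cells of the GFAP lineage only, so the other cells of the nerve keep that allele. Obesogenic-diet mice (3 libraries) received an AIN-76A formula in which fat supplied 58% of the energy, with sucrose, and the series title calls the exposure maternal. Control-diet mice (3 libraries) received PicoLab 5053. Both diets shared the genotype, so the comparison asks what the diet did on the tumour-forming background and not what loss of Nf1 did. No label states whether the 3 libraries of a diet are separate animals or litters, so p-values measure the spread between these libraries only, and that spread may be technical.

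Oligodendrocyte precursors are the dividing cells of the lineage and carry the platelet-derived growth factor receptor PDGFRA and the proteoglycan NG2, which Cspg4 encodes. On leaving the cell cycle they pass through a committed stage marked by the receptor GPR17 and become newly formed oligodendrocytes, which carry BCAS1 and ENPP6 before they wrap axons. The transcription factors SOX10 and OLIG2 act along the whole path. In the optic nerve, precursors arrive along the nerve from the brain and their progeny myelinate the axons of retinal ganglion cells. By these roles, the 33 genes were put in a precursor stage (20 genes), a committed and newly formed stage (9 genes) and a whole-lineage group (4 genes). Members known in other cell types are named with the results.

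Levels are in TPM, a length-corrected unit that gives every library the same total, so levels can be compared between genes and the sequencing depth is unknown. The genes of the table added up to 788456 to 832193 TPM in a library, and between 13824 and 14514 genes reached 1 TPM. Obesogenic library 2 stood apart from the other 5: immunoglobulin genes held 20.6% of its listed TPM, against at most 0.0439% in any other library, which lowers the TPM of every other gene there. Over the 14364 genes tested, obesogenic library 2 was the lowest of the 3 obesogenic libraries for 59.5% and the lowest of all 6 for 36.1%. Results are therefore also given after the immunoglobulin genes were left out and the remaining genes were rescaled to one total per library. Below, 3 values in a row are libraries 1, 2 and 3 of a diet.

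SOX10 binds the letters ACAAAG or ACAATG, as SOX proteins do, and 23 of the 33 genes had a promoter entry in the RefSeq table (build GRCm38.p6). Bcas1, C1ql1, Cacng4, Cspg5, Gpr17, Megf11, Olig1, Sox10, Tmem100 and Xylt1 had none. The 250 bases before the table's start are shown for 3 genes on which the results turn (among genes with 1 entry, that start was the gene's first base in RefSeq for 74.7%): Sirt2, lower in every obesogenic library, Ptprz1, higher relative to Olig2 in every obesogenic library, and Olig2, the gene used as that yardstick. Capitals mark a match to either motif on either strand. Each sequence runs 5′ to 3′ on the plus strand, at chr7:28766502-28766751 for Sirt2, chr6:22875252-22875501 for Ptprz1 and chr16:91225300-91225549 for Olig2.
Sirt2: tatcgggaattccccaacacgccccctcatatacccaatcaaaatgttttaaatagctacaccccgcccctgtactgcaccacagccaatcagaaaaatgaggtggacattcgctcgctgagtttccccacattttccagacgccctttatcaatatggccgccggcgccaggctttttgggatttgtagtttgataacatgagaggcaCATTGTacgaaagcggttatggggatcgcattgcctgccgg
Ptprz1: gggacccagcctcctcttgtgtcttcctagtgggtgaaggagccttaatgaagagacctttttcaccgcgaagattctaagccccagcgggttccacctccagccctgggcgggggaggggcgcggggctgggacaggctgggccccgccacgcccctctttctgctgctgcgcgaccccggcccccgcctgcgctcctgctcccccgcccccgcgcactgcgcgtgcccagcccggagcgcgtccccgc
Olig2: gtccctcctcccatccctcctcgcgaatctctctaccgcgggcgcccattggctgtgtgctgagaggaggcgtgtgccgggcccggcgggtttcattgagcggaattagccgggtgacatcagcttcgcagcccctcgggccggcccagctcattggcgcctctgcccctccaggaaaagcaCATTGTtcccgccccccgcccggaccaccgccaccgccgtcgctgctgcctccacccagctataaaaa
Sirt2 and Olig2 each had 1 match, both to ACAATG on the reverse strand, and Ptprz1 had 0. Over all 32 promoters of the 23 genes, ACAAAG stood in 21.9%, against 16.5% of the 32851 promoters of the table. ACAATG stood in 18.8% of the 32, against 10.7% of all. Some genes had several entries, and most of the entries with ACAAAG were those of Sox6. By gene, 6 of the 23 had either motif. The E-box CANNTG, the letters that OLIG proteins bind, was found in 62.5% of the 32 and 66.2% of all. These are descriptions of letters and not of binding.

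None of the 33 genes passed the test between diets. The lowest values relative to control were those of Bcas1, C1ql1, Sox10 and Sirt2, the highest those of Sox6, Opcml, Pcdh15 and Ptprz1, and the classic markers Pdgfra, Cspg4 and Gpr17 overlapped between diets. Bcas1, a membrane-associated protein of early myelinating oligodendrocytes, was the member farthest from 0, with a log2 change of -1.08. With limma, 0 of 33 members had an adjusted p under 0.05, against 1 of 14364 genes (0.00696%). At an unadjusted p under 0.05 there were 3 members (Bcas1, C1ql1 and Sox10, each lower), against 11.0% of all genes and 5.0% on the lower side. Values did not overlap between diets for 3 members on the lower side (Bcas1, C1ql1 and Sirt2) and for 0 on the higher side, where the shares of all genes were 7.45% and 8.88%.

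Of the 33 genes, 24 had a log2 change below 0, as did 42.3% of all genes tested. Their median was -0.18, where all genes had a median of 0.08. By stage the median was -0.15 for precursor genes, -0.21 for committed and newly formed genes and -0.36 for whole-lineage genes. These medians carry obesogenic library 2: measured from the control mean, the members' median was 0.21, -0.61 and -0.08 in obesogenic libraries 1, 2 and 3. Library 2 was the lowest of the obesogenic libraries for 29 of 33 members and the lowest of all 6 for 22. Without it the median over the members was 0.05. After rescaling the median was -0.08, 21 members were below 0 where 34.1% of all genes were, and library 2 was the lowest obesogenic library for 23, where the share of all genes was 46.1%. In bulk tissue, fewer cells of a type and less RNA per cell cannot be told apart.

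Over the 6 libraries, 10 had a mean of at least 100 TPM, 13 lay between 20 and 100 TPM and 10 lay under 20 TPM. Bcas1 and Olig1 were at the top, and Tnc, Xylt1 and Pcdh15 were at the bottom. In TPM, the SD over obesogenic libraries exceeded the SD over control libraries for 27 of the 33. Obesogenic library 1 was the highest of its diet for 23 members and obesogenic library 3 for 8.

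**Figure D1:**
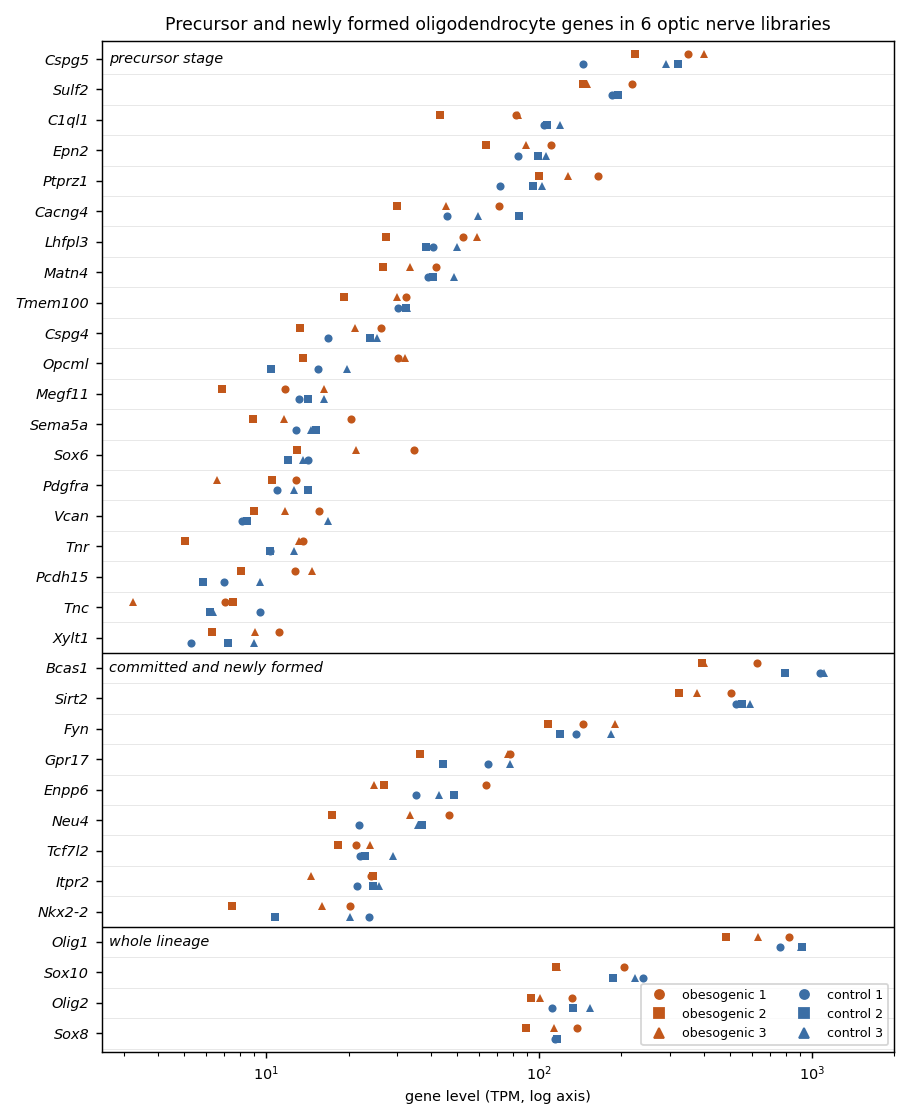
Gene level in TPM (log axis) of each of the 33 genes in each library, obesogenic libraries in orange above control libraries in blue, with stages separated by lines. The orange square (library 2) is the lowest orange point for 29.

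Among the whole-lineage transcription factors, Sox10 was the member with the lower values. Sox10 (ENSMUSG00000033006), the SOX factor required for oligodendrocytes to mature, had 204, 115 and 116 TPM in obesogenic libraries, against 239, 186 and 225 TPM in control libraries. Obesogenic libraries 2 and 3 lay below every control library and library 1 lay among them. The log2 change was -0.63 ± 0.26 (SE), with a limma adjusted p of 0.446. Sox8, a close relative of Sox10 in the same SOX group, was between 89.4 and 137 TPM in obesogenic libraries and between 114 and 116 TPM in control libraries, and its log2 change of -0.05 turned to 0.05 after rescaling.

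Olig1 (ENSMUSG00000046160), a basic helix-loop-helix factor involved in myelination and repair, had 825, 484 and 631 TPM in obesogenic libraries and 762, 914 and 913 TPM in control libraries. Its log2 change was -0.44 ± 0.25 (SE; limma adjusted p = 0.565), and -0.25 without obesogenic library 2. Olig2 (ENSMUSG00000039830), which specifies the lineage, had 132, 92.9 and 101 TPM in obesogenic libraries and 111, 133 and 153 TPM in control libraries, a log2 change of -0.29 ± 0.21 (SE), and of -0.18 without obesogenic library 2 or without control library 3. Both sets of values overlapped between diets, with obesogenic library 1 inside the control range.

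Nkx2-2 (ENSMUSG00000027434), a homeodomain factor that promotes differentiation, had 20.3, 7.48 and 16.0 TPM in obesogenic libraries and 23.8, 10.8 and 20.2 TPM in control libraries. Tcf7l2 (ENSMUSG00000024985), a WNT effector found transiently in newly differentiating oligodendrocytes and also in astrocytes and some neurons, had 21.3, 18.3 and 23.9 TPM in obesogenic libraries and 22.0, 22.9 and 29.2 TPM in control libraries. Both overlapped between diets. Sox6 (ENSMUSG00000051910), which restrains differentiation of precursors, had 34.7, 13.0 and 21.3 TPM in obesogenic libraries and 14.2, 12 and 13.6 TPM in control libraries. Its obesogenic library 2 lay within the control range, libraries 1 and 3 lay above it, and the log2 change was 0.65 ± 0.35 (SE; limma adjusted p = 0.553). Without obesogenic library 1 it was 0.31, and without library 2 it was 0.99. After rescaling, Sox6 had 33.8, 15.3 and 21.0 TPM in obesogenic libraries against 13.8, 11.7 and 13.1 TPM in control libraries, which no longer overlapped (log2 change 0.75, limma adjusted p = 0.331).

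The gene with the clearest separation was Bcas1 (ENSMUSG00000013523). It had 625, 395 and 402 TPM in obesogenic libraries, against 1072, 792 and 1102 TPM in control libraries, so each obesogenic library lay below each control library. The means were 474 ± 130 TPM with the obesogenic diet and 989 ± 171 TPM with the control diet (SD, n = 3 each). The log2 change of -1.08 ± 0.26 (SE) had a 95% interval of -1.69 to -0.47, and the limma adjusted p was 0.258. Leaving out any one library gave log2 changes between -1.29 and -0.96, so the size did not rest on obesogenic library 2. Over 17 settings of the fit, the Bcas1 change ran from -1.29 to -0.70, so its size did depend on the processing. Bcas1 is also expressed by mature oligodendrocytes, and the sum of 18 mature markers was 59019, 30289 and 30243 TPM in obesogenic libraries against 68576, 66572 and 73331 TPM in control libraries. Of those 18 markers, 17 had a log2 change below 0, the median was -0.61 and none passed (smallest limma adjusted p = 0.228). Without overlap between diets, 6 of the 18 lay lower, against 7.45% of all genes, and 0 lay higher, against 8.88%. Mobp, a structural myelin gene, had 7069, 3591 and 3737 TPM in obesogenic libraries and 9853, 7833 and 11305 TPM in control libraries. The ratio of Bcas1 to Mobp was 0.102 ± 0.0119 in obesogenic libraries and 0.102 ± 0.00578 in control libraries (SD, n = 3 each). The part of mature oligodendrocytes in the Bcas1 values was not tested.

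The other committed and newly formed genes did not separate in this way, apart from Sirt2. Gpr17 (ENSMUSG00000052229), the G protein-coupled receptor that marks committed precursors, had 78.3, 36.7 and 76.6 TPM in obesogenic libraries and 64.9, 44.4 and 78.3 TPM in control libraries. Its log2 change was -0.01 with a 95% interval of -0.83 to 0.81. Enpp6 (ENSMUSG00000038173), a choline phosphodiesterase of newly formed oligodendrocytes, had 63.6, 26.9 and 24.9 TPM in obesogenic libraries and 35.2, 48.6 and 43.0 TPM in control libraries. Obesogenic library 1 held the highest Enpp6 value and the other two held the lowest, and the log2 change was -0.25 ± 0.37 (SE). Leaving out obesogenic library 1 gave -0.67, and leaving out library 3 gave -0.02. Neu4 (ENSMUSG00000034000), a sialidase of this stage, had 46.6, 17.4 and 33.5 TPM in obesogenic libraries and 21.9, 37.3 and 35.8 TPM in control libraries, a log2 change of -0.03 ± 0.39 (SE). The 95% interval was -1.11 to 0.61 for Enpp6 and -0.94 to 0.88 for Neu4, so the data do not fix the direction of these genes.

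Sirt2 (ENSMUSG00000015149), an NAD-dependent deacetylase of tubulin that is abundant in oligodendrocytes at all later stages, had 505, 324 and 378 TPM in obesogenic libraries and 525, 553 and 591 TPM in control libraries. Every obesogenic library lay below every control library, library 1 by a small margin. The log2 change was -0.49 ± 0.22 (SE; limma adjusted p = 0.472). Fyn, a SRC-family kinase that receives axonal signals and is also found in neurons, lay between 108 and 190 TPM in obesogenic libraries and between 119 and 183 TPM in control libraries, with a log2 change of 0.0. Itpr2, an inositol trisphosphate receptor of the endoplasmic reticulum, lay between 14.6 and 24.6 TPM in obesogenic libraries and between 21.5 and 25.8 TPM in control libraries.

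**Figure D2:**
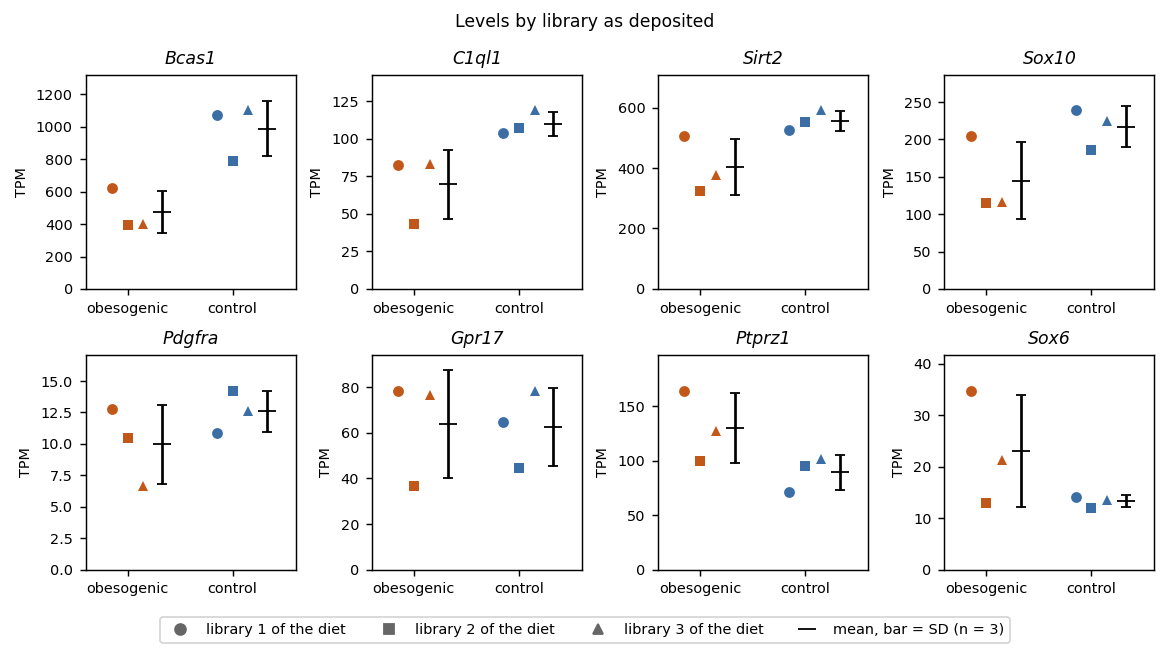
TPM of 8 genes by library, obesogenic on the left and control on the right of each panel, with symbols for library number and the mean with its SD (n = 3). Bcas1, C1ql1 and Sirt2 have no obesogenic point above a control point, Gpr17 and Pdgfra overlap, and Ptprz1 and Sox6 have obesogenic means above the control means.

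Of the precursor receptors and surface genes, Pdgfra (ENSMUSG00000029231), the receptor for the mitogen of these cells, had 12.8, 10.5 and 6.62 TPM in obesogenic libraries and 10.9, 14.2 and 12.6 TPM in control libraries. The log2 change was -0.34 ± 0.30 (SE), with a limma adjusted p of 0.733, and without obesogenic library 3 it was -0.10. Pdgfra is also a fibroblast gene, and all 14 meningeal fibroblast markers had a log2 change below 0, with a median of -1.29. None passed (smallest limma adjusted p = 0.119) and 12 lay lower without overlap between diets, against 7.45% of all genes. Their summed level was 1275, 1401 and 1093 TPM in obesogenic libraries and 3484, 3295 and 2589 TPM in control libraries. Cspg4 (ENSMUSG00000032911), the NG2 gene, had 26.4, 13.3 and 21.2 TPM in obesogenic libraries and 16.8, 23.9 and 25.4 TPM in control libraries, a log2 change of -0.14 ± 0.31 (SE). Cspg4 is also a pericyte gene, and all 10 tested pericyte and smooth muscle markers had a log2 change below 0, with a median of -1.14. None of these markers passed (smallest limma adjusted p = 0.153) and 7 lay lower without overlap, against 7.45% of all genes. Their summed level was 429, 433 and 416 TPM in obesogenic libraries and 1201, 992 and 775 TPM in control libraries, and Pdgfrb was listed at 0 throughout. The part of fibroblasts and pericytes in these values was not tested.

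C1ql1 (ENSMUSG00000045532), a secreted protein of the C1q family made by precursors, had 82.5, 43.2 and 83.5 TPM in obesogenic libraries against 104, 107 and 119 TPM in control libraries. No library of one diet overlapped the other, and library 2 alone was far below. The log2 change was -0.71 ± 0.28 (SE; limma adjusted p = 0.429), and without obesogenic library 2 it was -0.40. Lhfpl3, a membrane gene of precursors, lay between 27.5 and 59.1 TPM in obesogenic libraries and between 38.4 and 49.9 TPM in control libraries. Among the remaining receptor and signalling genes of this stage, Cacng4 (an auxiliary subunit of AMPA receptors), Megf11 (a membrane protein with EGF-like repeats), Sema5a (a semaphorin), Tmem100 (also endothelial) and Epn2 (an endocytic adaptor), the log2 changes ran from -0.41 for Cacng4 to -0.12 for Sema5a, and all overlapped between diets. Of the 12 endothelial markers, 11 had a log2 change below 0, with a median of -0.89, and none passed (smallest limma adjusted p = 0.162). Without overlap between diets, 8 of the 12 lay lower, against 7.45% of all genes, and 0 lay higher, against 8.88%.

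Of the 9 proteoglycan and matrix genes, 4 had a log2 change above 0. Ptprz1 (ENSMUSG00000068748), a receptor tyrosine phosphatase that carries chondroitin sulphate and is also expressed by astrocytes, had 164, 99.5 and 127 TPM in obesogenic libraries and 71.6, 95.1 and 102 TPM in control libraries. Obesogenic library 2 fell just under control library 3, and the log2 change was 0.52 ± 0.24 (SE; limma adjusted p = 0.49). Without obesogenic library 1 it was 0.34. After rescaling, Ptprz1 had 159, 117 and 125 TPM in obesogenic libraries and 69.3, 92.4 and 98.1 TPM in control libraries, with no overlap (log2 change 0.62, limma adjusted p = 0.277). Cspg5, a brain proteoglycan also made by astrocytes, was between 225 and 400 TPM in obesogenic libraries and between 144 and 322 TPM in control libraries, a log2 change of 0.41 ± 0.36 (SE). Control library 1 set that size, since the change was 0.04 without it.

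Vcan (ENSMUSG00000021614), which encodes versican and is also a fibroblast gene, had 15.6, 8.99 and 11.7 TPM in obesogenic libraries and 8.15, 8.51 and 16.8 TPM in control libraries. Tnr (ENSMUSG00000015829), the tenascin of the oligodendrocyte lineage, had 13.6, 5.02 and 13.2 TPM in obesogenic libraries and 10.3, 10.3 and 12.6 TPM in control libraries. Both overlapped, and the library that was lowest with the obesogenic diet was library 2 in each. The remaining matrix genes had log2 changes of 0.26 for Xylt1, which starts glycosaminoglycan chains and is also found in neurons, -0.18 for Sulf2, a heparan sulphate sulphatase, -0.31 for Tnc, a tenascin of astrocytes and fibroblasts too, and -0.34 for Matn4, a matrilin. None of these 4 had an obesogenic range clear of the control range.

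Pcdh15, a protocadherin of precursors, had 12.7, 8.05 and 14.7 TPM in obesogenic libraries and 7.02, 5.88 and 9.45 TPM in control libraries, a log2 change of 0.58 ± 0.32 (SE). After rescaling its values were 12.3, 9.45 and 14.4 TPM in obesogenic libraries and 6.80, 5.71 and 9.08 TPM in control libraries, which did not overlap (limma adjusted p = 0.336). Opcml, a cell adhesion protein of precursors and neurons, lay between 13.6 and 32.1 TPM in obesogenic libraries and between 10.4 and 19.7 TPM in control libraries (log2 change 0.65 ± 0.39, SE). Without obesogenic library 2 the Opcml change was 1.03, and without control library 2 it was 0.42. All 12 neuronal markers had a log2 change above 0, with a median of 2.69, although none passed (smallest limma adjusted p = 0.237). Without overlap between diets, 8 of the 12 lay higher, against 8.88% of all genes. Their summed level was 619, 238 and 1544 TPM in obesogenic libraries against 137, 97.2 and 178 TPM in control libraries. The summed level of the 12 astrocyte markers was 8398, 3323 and 5806 TPM in obesogenic libraries against 8620, 8647 and 7074 TPM in control libraries, with a median log2 change of -0.28. The part of neurons and astrocytes in the Ptprz1, Sox6, Pcdh15 and Opcml values was not tested.

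After rescaling, 3 members did not overlap on the higher side (Ptprz1, Sox6 and Pcdh15), where the share of all genes was 16.1%, and 3 did not overlap on the lower side (Bcas1, C1ql1 and Sirt2), where it was 5.78%. None passed the adjusted threshold, as on the deposited scale, and 1 of 14366 genes did (0.00696%). At an unadjusted p under 0.05 there were 5 members, these 6 without Sirt2, against 14.4% of all genes: 2 were lower, where the share of all genes was 3.95%, and 3 were higher, where it was 10.5%. Leaving out obesogenic library 2 instead gave 8 members clear of the control libraries on the higher side, where 31.6% of all genes were. On the lower side it gave 3, where 11.8% were. Leaving out obesogenic library 1 instead gave 14 members clear on the lower side, where 15.7% of all genes were. On the higher side it gave 0, where 10.8% were.

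**Figure D3:**
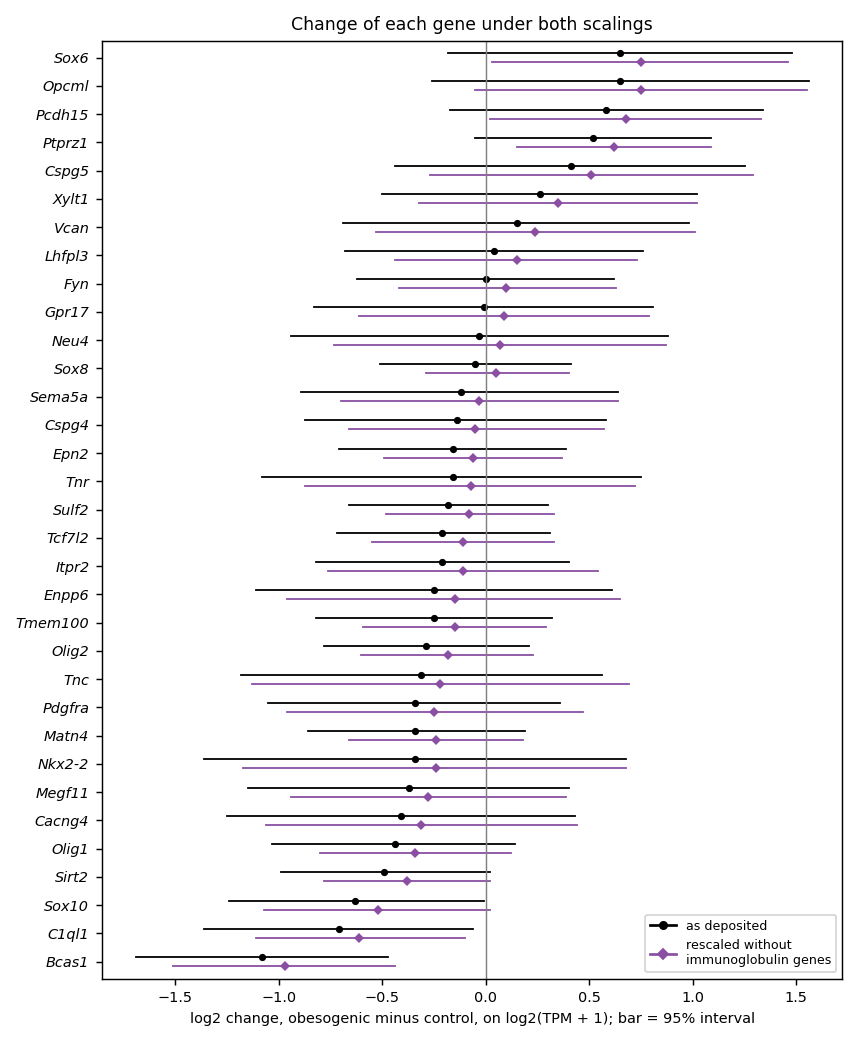
Log2 change of each of the 33 genes on the log2(TPM + 1) scale, obesogenic minus control, with 95% intervals, from the deposited values (black circles) and after rescaling without immunoglobulin genes (purple diamonds). The black intervals of 30 genes hold 0, those of Bcas1, C1ql1 and Sox10 do not, and rescaling moves every point to the right.

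Ratios of 2 genes within a library are not touched by a scaling common to both. The pairs below were chosen after the values were seen, and are a description. Bcas1 over Olig2 was 4.74, 4.25 and 3.98 in obesogenic libraries and 9.65, 5.97 and 7.22 in control libraries. The obesogenic ratios lay close together and below every control ratio. Sirt2 over Olig2 was also lower in each obesogenic library (3.83, 3.49 and 3.75) than in any control library (4.73, 4.17 and 3.87). The margin for Sirt2 was small, with obesogenic library 1 just under control library 3. Sox10 over Sox8 was 1.48, 1.28 and 1.03 in obesogenic libraries and 2.11, 1.6 and 1.94 in control libraries, without overlap. With Olig2 as the denominator the Sox10 ratio overlapped, at 1.55, 1.23 and 1.14 in obesogenic libraries and 2.15, 1.4 and 1.48 in control libraries. C1ql1 over Olig2 overlapped too, at 0.626, 0.465 and 0.827 in obesogenic libraries and 0.934, 0.81 and 0.779 in control libraries. Against the myelin gene Mobp the order was the reverse for Sirt2 and Sox10. Sirt2 over Mobp was 0.0714, 0.0903 and 0.101 in obesogenic libraries and 0.0533, 0.0705 and 0.0523 in control libraries, and Sox10 over Mobp was 0.0288, 0.0319 and 0.0309 in obesogenic libraries and 0.0243, 0.0237 and 0.0199 in control libraries. Ptprz1 over Olig2 ran the other way, with 1.24, 1.07 and 1.26 in obesogenic libraries and 0.644, 0.717 and 0.669 in control libraries. Sox6 over Olig2 was also higher in each obesogenic library, at 0.263, 0.140 and 0.211, than in any control library, at 0.128, 0.0904 and 0.0891. For Pdgfra, Cspg4 and Gpr17 the ratios to Olig2 overlapped between diets. Pdgfra over Olig2 averaged 0.0919 ± 0.0242 in obesogenic libraries and 0.0959 ± 0.0124 in control libraries, and Cspg4 over Olig2 averaged 0.184 ± 0.0364 in obesogenic libraries and 0.166 ± 0.0143 in control libraries (SD, n = 3 each). Gpr17 over Olig2 averaged 0.583 ± 0.182 in obesogenic libraries and 0.477 ± 0.128 in control libraries.

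**Figure D4:**
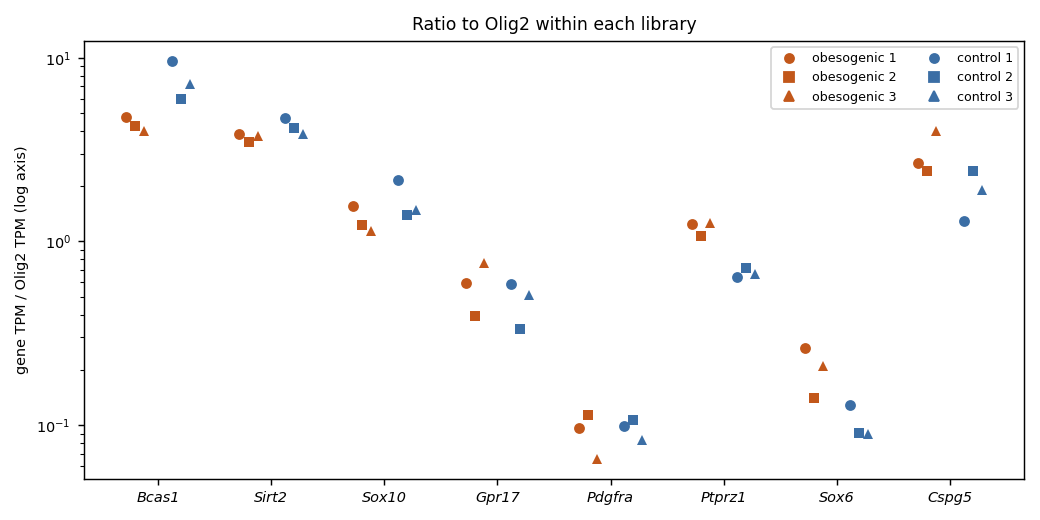
Ratio of the TPM of 8 genes to the TPM of Olig2 in the same library (log axis), obesogenic in orange on the left of each pair and control in blue on the right. Bcas1 and Sirt2 lie lower and Ptprz1 and Sox6 lie higher in every obesogenic library, while Gpr17 and Pdgfra overlap. The margin for Sirt2 is small.

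No transcript of these genes passed the test either. The 33 genes had 228 listed transcripts, of which 111 passed the filter and 47 were listed at 0 in all libraries. With limma over 35408 transcripts, 0 of the 111 had an adjusted p under 0.05, against 2 of all transcripts (0.00565%), and the smallest adjusted p was 0.29. At an unadjusted p under 0.05 there were 8, against 8.46% of all, and 7 of the 8 were lower. Without overlap between diets there were 10 lower and 1 higher, where the shares of all transcripts were 6.11% and 7.43%. Bcas1-208, the main protein-coding transcript of Bcas1, had 508, 327 and 318 TPM in obesogenic libraries and 914, 662 and 912 TPM in control libraries, a log2 change of -1.13. It held between 79.1% and 82.8% of the gene in obesogenic libraries and between 82.7% and 85.3% in control libraries, so most of the gene's difference lay in this transcript. The noncoding Bcas1-204 and Bcas1-206 were also lower without overlap, by log2 changes of -1.17 and -0.65. Sox10-201 had 158, 103 and 106 TPM in obesogenic libraries and 192, 160 and 187 TPM in control libraries, which did not overlap although the whole gene did. Sox10-203, named after its values were seen, had 36.3, 6.46 and 3.39 TPM in obesogenic libraries and 37.3, 19.8 and 28.8 TPM in control libraries.

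Opcml-203, a transcript without a coding label, was the one on the higher side, with 9.15, 6.06 and 12.7 TPM in obesogenic libraries and 5.55, 2.02 and 3.60 TPM in control libraries. Its log2 change was 1.14 ± 0.42 (SE; limma adjusted p = 0.529). Sulf2-202 was lower without overlap by a log2 change of -0.23. The share of a gene's TPM on protein-coding transcripts was at least 90% in every library for 16 of the 33. It was 0.0% in every library for Itpr2, so the Itpr2 level is carried by transcripts labelled as processed, retained-intron or subject to decay. For Pcdh15 it was 39.9%, 21.6% and 28.7% in obesogenic libraries and 43.2%, 48.5% and 46.5% in control libraries, so most of the Pcdh15 level is not coding either.

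The signals around these cells were read from 3 further lists. Of 25 growth factors and receptors that act on precursors, 21 were tested, 16 had a log2 change below 0, none passed the threshold and the median was -0.32. Fgfr1, a receptor for fibroblast growth factors, had 107, 70.7 and 78.3 TPM in obesogenic libraries and 153, 170 and 152 TPM in control libraries (log2 change -0.91, limma adjusted p = 0.236). Cxcl12, a chemokine that guides precursors and is made by meningeal and vascular cells, had 71.7, 126 and 65.6 TPM in obesogenic libraries and 180, 200 and 160 TPM in control libraries (log2 change -1.09, limma adjusted p = 0.267). Both had every obesogenic library below every control library, as did 4 of the 21 in all, against 7.45% of all genes. The other way there were 0, against 8.88% of all genes. Pdgfa, the main ligand of PDGFRA, had a log2 change of -0.32.

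Of 21 genes listed for the inhibition of oligodendrocyte differentiation, 12 had a log2 change below 0, none passed and the median was -0.32. The list holds inhibitors and other genes of their pathways, among them the WNT antagonist Apcdd1, so its counts are not of inhibitors alone. Id3 and Id1, antagonists of basic helix-loop-helix factors that BMP signals induce, had log2 changes of -0.80 and -0.64, and the WNT antagonist Apcdd1 had -0.83. Jag1, a NOTCH ligand, had -0.68. The obesogenic libraries lay below the control libraries without overlap for each of these 4. In the whole list this held for 5 of 21, against 7.45% of all genes, and 1 (Bmpr1b, a BMP receptor) lay above without overlap, against 8.88% of all genes. Of 24 drivers of differentiation, 20 were tested, 13 had a log2 change below 0, none passed and the median was -0.27. Myrf, the factor that switches on myelin genes, had 23.9, 15.6 and 13.9 TPM in obesogenic libraries and 24.2, 24.9 and 27.2 TPM in control libraries (log2 change -0.53, limma adjusted p = 0.503). Tmem98, which binds MYRF, had a log2 change of -0.64, Nkx6-2 had -0.47, and the zinc finger gene Zfp24 had 0.52. In the whole list 3 of the 20 lay lower without overlap, Myrf among them, against 7.45% of all genes. Zfp24 was the 1 that lay higher without overlap, against 8.88% of all genes.

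The remaining cell type lists differed mainly through obesogenic library 2. The 7 tested lymphocyte markers summed to 17.3, 2582 and 12.3 TPM in obesogenic libraries and 21.0, 33.2 and 20.8 TPM in control libraries. Microglial markers summed to 628, 2427 and 569 TPM in obesogenic libraries and 867, 799 and 600 TPM in control libraries. Genes of dividing cells, of which 7 of 12 were tested, summed to 30.6, 85.7 and 21.9 TPM in obesogenic libraries and 29.2, 43.0 and 21.2 TPM in control libraries. Library 2 had the highest sum, and libraries 1 and 3 lay within the control range. Of 7 markers of myelinating Schwann cells, 2 passed the filter.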

How the data were processed

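Poly(A) RNA of mouse optic nerve was sequenced in 6 libraries, and the authors deposited transcript levels in TPM. Per the submitters' processing notes, the tools included STAR 2.7.9a, featureCounts 2.0.3, DRAGEN and Subread, with no role stated. What computed the TPM, and on which genome build and annotation, is not given in the sources used here. Promoters were therefore taken from RefSeq by symbol only. Of 110028 lines, repeated transcripts were dropped (109383 left) and TPM were summed to 35850 genes. Listed isoforms may not be all isoforms of a gene.

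A gene was kept where 3 or more of the 6 libraries reached 1 TPM (14364 genes). The test was limma 3.58.1 (R 4.3.3, lmFit and eBayes with trend) on log2(TPM + 1), obesogenic minus control. P-values are two-sided and adjusted by Benjamini-Hochberg over all genes, with a threshold of 0.05. This scale understates changes of low genes. An exact permutation test of 3 against 3 cannot go below 0.1 and was not used. TPM give no depth, so no counting interval was computed.

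The members and all lists were chosen with earlier results of these data known. Values in every library are given for members without overlap, members with an unadjusted p under 0.05, and 15 defining genes, and from each further list at most 4 genes of smallest p whose mean reached 2 TPM. Pdgfa, Pcdh15 and Sox10-203 were named outside this rule or after their values were seen.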

Additional observations from a re-analysis of the deposited data

How the results depend on the processing

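With 3 libraries a diet and no depth, small changes of these genes could not be separated from the spread between libraries. The number of genes called was 0 with a pseudocount of 5 and 0 without a filter, and 2064 with array weights, which let libraries count unequally. Leaving out 1 library at a time gave 0 to 860 genes, the 860 without obesogenic library 2. None of the members was called in any of these except with array weights, which called 4 (Bcas1, Opcml, Ptprz1 and Sox6). The cause of the larger counts was not tested. The median of the members turned to 0.15 with array weights and to 0.05 without obesogenic library 2. Its other values, over every other planned setting, lay below 0. The median of all genes was -0.03 under quantile normalization and 0.18 with array weights.

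The titles number the samples 1 to 3 in each diet. Deviations of same-numbered samples correlated at 0.008, 0.177 and 0.132. For obesogenic samples 2 and 3 these were the highest values, and their correlations with other control samples ran from -0.169 to -0.003. Obesogenic sample 1 correlated best with control sample 3 (0.107). No label gives the numbers a meaning, and the numbers were not taken as pairs in the main fit. With the sample number as a block, 1 gene and 0 members were called, and the members' median was -0.18.

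Of the single-gene changes, 513 values kept their direction and their side of the threshold, 4 came to pass it and 44 changed sign. Fyn had a main value of 0.0, so it was counted with the 513, although its values ran from -0.20 to 0.22. Rescaling without immunoglobulin genes gave 0.09 for Gpr17, 0.07 for Neu4 and 0.05 for Sox8. Quantile normalization gave -0.05 for Lhfpl3. The most abundant transcript gave 0.06 for Sox8 and 0.15 for Tnc. Array weights gave 0.09 for Cacng4, 0.22 for Cspg4, 0.43 for Enpp6, 0.15 for Epn2, 0.36 for Gpr17, 0.50 for Neu4, 0.18 for Nkx2-2, 0.40 for Sema5a, 0.21 for Sox8, 0.13 for Sulf2 and 0.24 for Tnr. Leaving out 1 library at a time gave ranges of -0.35 to 0.12 for Cspg4, -0.34 to 0.05 for Epn2, -0.23 to 0.34 for Gpr17, -0.33 to 0.03 for Itpr2, -0.16 to 0.38 for Lhfpl3, -0.34 to 0.35 for Neu4, -0.66 to 0.05 for Nkx2-2, -0.44 to 0.12 for Sema5a, -0.20 to 0.11 for Sox8, -0.49 to 0.01 for Tnc, -0.38 to 0.26 for Tnr and -0.04 to 0.46 for Vcan. Rescaling and leaving out obesogenic library 2 together, chosen after seeing the data, gave 0.13 for Cspg4, 0.07 for Epn2, 0.36 for Gpr17, 0.36 for Neu4, 0.07 for Nkx2-2, 0.13 for Sema5a, 0.12 for Sox8 and 0.27 for Tnr.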
